A study of Mus musculus with 6 samples.

Results

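The genes described here are the zinc finger protein genes whose mouse symbol is Zfp followed by a number, alone or with a short letter and digit ending. They were found by matching the symbols of the deposited table, and 271 of its 12125 listed genes carried such a symbol. The libraries came from kidney cells of mice of 2 genotypes, Trf1+/+ (3 libraries) and Trf1flox/flox (3 libraries). Both genotypes carried Cre-ERT2 driven by the Col1a2 promoter and an allele of the fluorescent protein KFP that Cre switches on (Cre+/t and KFP+/t in the labels), and both received tamoxifen. Male and female mice were 6 to 8 weeks old at the first injection and were injected 3 times a week for 8 weeks, so that the genotypes differed in the floxed Trf1 alleles and not in the agents given. Cells labelled as fibroblasts were sorted with antibodies to the integrin CD29 and to KFP, and RNA of 500 cells per library was amplified and sequenced. The comparison asks what loss of TRF1, a protein of the telomere cap encoded by Terf1, does in cells with an active Col1a2 promoter.

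A zinc finger is a short stretch of protein folded around a zinc ion. In the C2H2 type, 2 cysteines and 2 histidines hold the zinc, and fingers set in tandem read DNA a few bases at a time. Most of the long arrays belong to proteins with a KRAB domain, which recruits the corepressor TRIM28 and through it histone methylation, and many of these proteins silence retroelements. The KRAB genes multiplied by local duplication and lie in groups of near copies. A smaller number of Zfp genes encode fingers of the CCCH type, which bind AU-rich elements of mRNA and bring about its decay. Many of these genes are transcribed at low levels.

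Depth and library content differed in ways that touch every value below. The listed genes held 10263382 to 12248797 reads per library, and a single read was worth 0.689 to 1.09 normalized counts. A gene with 3 reads or fewer in a library (2.07 to 3.28 normalized counts) was taken as being at the floor, which covers counting error only because the reads carry no molecular identifiers. The library labelled Trf1+/+ replicate 1 had a Terf1 level of 0.891 normalized counts, against 253 and 235 in the other Trf1+/+ libraries. It was 110.0, 7.65 and 12.4 in the Trf1flox/flox libraries. Trf1+/+ replicate 1 so went against its label, and Trf1flox/flox replicate 1 stood apart from its group. Of all listed genes with a mean of 100 to 300 in the other 5 libraries, 23.1% were at 0 in Trf1+/+ replicate 1. The reason for its low Terf1 value was not tested. Values of a gene follow the order of replicates 1, 2 and 3 of each genotype. Groups are used as labelled. For some results, values without Trf1+/+ replicate 1 are also given, while the count-based fits named below used all 6 libraries. Of 10 fibroblast markers, 3 were listed. Their sum ranged from 6.23 to 1737 normalized counts in Trf1+/+ and from 483 to 918 in Trf1flox/flox, most of it Itgb1, which encodes the sorting marker CD29. Col1a2 stood at 0 to 1.78 and Dcn at 0 to 97.3 in the 6 libraries, while the summed proximal tubule markers (10 of 10 listed) ranged from 32295 to 162601 in Trf1+/+ and from 44313 to 167589 in Trf1flox/flox. The only T cell marker listed of 6, Trac, was at 0 in the 3 Trf1+/+ libraries and at 172, 216 and 61.3 in the Trf1flox/flox libraries. The summed markers of the loop and distal tubule (6 of 6 listed) were at 80088 to 124242 and 57909 to 149717 in Trf1+/+ and Trf1flox/flox, with Slc12a3 and Calb1 lower in Trf1flox/flox without overlap. Those of the collecting duct (5 of 5 listed) were at 1127 to 3388 and 808 to 18929, of the endothelium (1 of 6 listed) at 7.13 to 9.11 and 0.859 to 12, and of macrophages (3 of 6 listed) at 0 to 379 and 0 to 260.1. The part of these differences in the results below was not tested. In these bulk libraries, fewer cells of a type and less RNA per cell cannot be told apart.

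The Zfp genes were less completely detected than the listed genes as a whole in every library. At least 1 read was found for 165, 232 and 231 of the 271 genes in Trf1+/+ replicates 1, 2 and 3, and for 231, 184 and 254 in Trf1flox/flox replicates 1, 2 and 3. These are 60.9%, 85.6% and 85.2% of the Zfp genes in Trf1+/+ and 85.2%, 67.9% and 93.7% in Trf1flox/flox. For all listed genes the same shares were 74.0%, 91.6% and 90.2%, then 90.4%, 80.3% and 95.6%. The ranges of the genotypes overlapped, and 1 library of each stood well below its other 2.

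**Figure D1:**
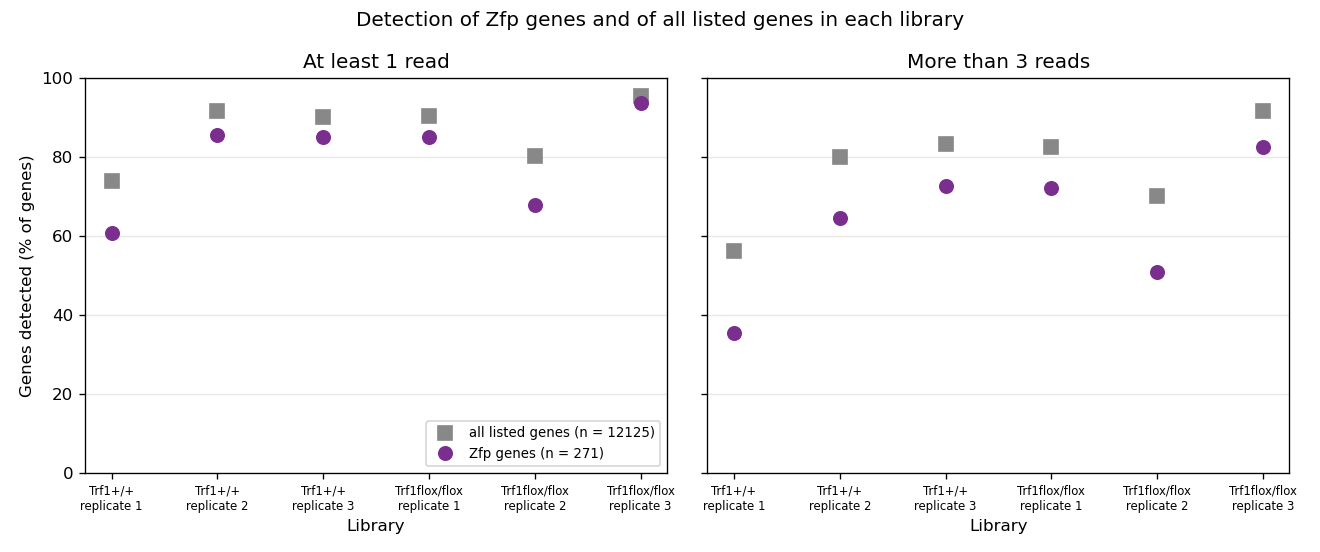
Share of genes (y axis, %) with at least 1 read (left) and with more than 3 reads (right) in each of the 6 libraries (x axis), for the 271 Zfp genes (circles) and all 12125 listed genes (squares). Zfp genes lie below all genes in each library, and the lowest pairs are Trf1+/+ replicate 1 (60.9% against 74.0% at 1 read) and Trf1flox/flox replicate 2 (67.9% against 80.3%).

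Above the floor, 96, 175 and 197 Zfp genes were counted in Trf1+/+ and 196, 138 and 224 in Trf1flox/flox. Only 47 Zfp genes (17.3%) were above the floor in all 6 libraries, compared with 41.2% of all listed genes. A further 53 were above it in 5 libraries, 57 in 4, 54 in 3, 33 in 2 and 23 in 1. The remaining 4, Zfp282, Zfp382, Zfp420 and Zfp763, were at the floor throughout. In other zinc finger families, 13.8% of 29 Zbtb genes and 23.1% of 13 Zscan and Zkscan genes were above the floor in all 6 libraries. For 11 Klf genes the share was 54.5%. A low share was thus not particular to Zfp genes. No Zfp gene had reads in every Trf1+/+ library and none in Trf1flox/flox, as 0.14% of all listed genes did. The reverse, found for 0.47% of all listed genes, held for 1 Zfp gene, Zfp185, which was at 0 in Trf1+/+ and at 0.859, 1.09 and 63.4 in Trf1flox/flox, so that it cleared the floor in 1 library. Zeros clustered by library instead. There were 29 Zfp genes at 0 in Trf1+/+ replicate 1 alone and 20 in Trf1flox/flox replicate 2 alone. Another 20 were at 0 in both of these while the other 4 libraries had reads. Of all 12125 listed genes, 1202, 721 and 474 showed the same patterns, so such zeros were not particular to Zfp genes.

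**Figure D2:**
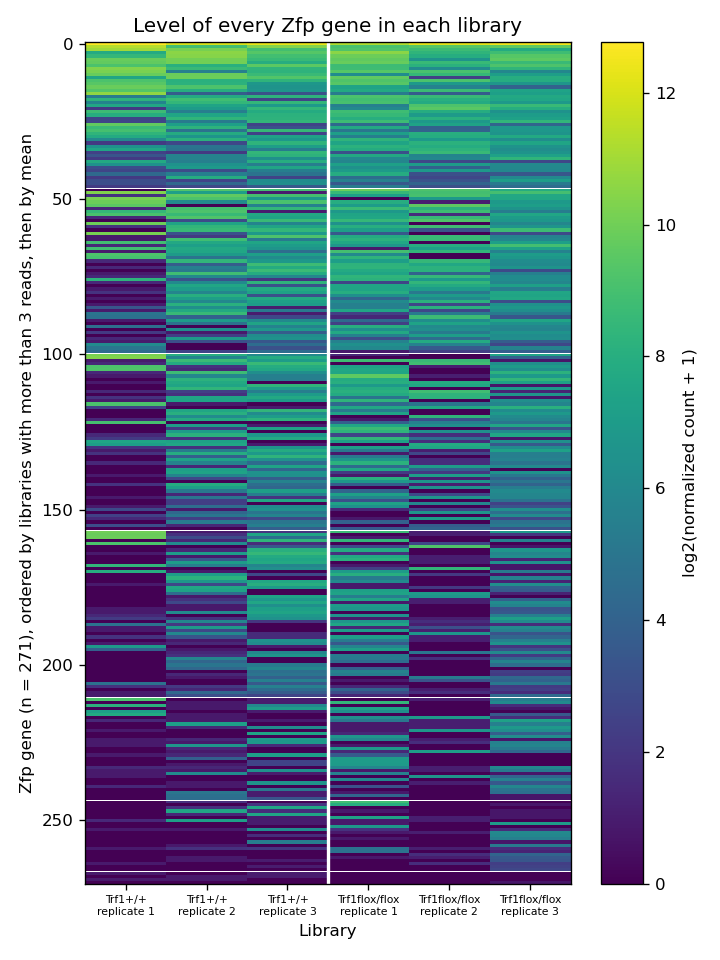
Level of each of the 271 Zfp genes (rows) in the 6 libraries (columns) as log2(normalized count + 1), ordered by the number of libraries above 3 reads and then by mean, with thin lines between those classes. The uppermost block holds the 47 genes above the floor in all 6 libraries, and dark stretches in Trf1+/+ replicate 1 and Trf1flox/flox replicate 2 mark genes at 0 there.

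These zeros were not limited to genes of low level. Taking Zfp genes whose mean over the 5 remaining libraries reached 100 normalized counts, 21.8% were at 0 in Trf1+/+ replicate 1 and 17.6% in Trf1flox/flox replicate 2. The corresponding shares of all listed genes were 12.9% and 9.01%. Within the narrower band of 100 to 300 normalized counts the shares lay closer, at 25.9% of Zfp genes against 23.1% of all genes in Trf1+/+ replicate 1 and 20.5% against 16.3% in Trf1flox/flox replicate 2. Among the Zfp genes above the floor in Trf1+/+ replicate 1, the median was 246 normalized counts, compared with 64.4 to 143 in the other 5 libraries. That library thus held fewer Zfp genes above the floor, with a higher median. For all listed genes above the floor the median was 473 there and 141 to 283 in the other 5 libraries. Trf1+/+ replicate 1 also had the fewest Zfp genes at 100 normalized counts or more, 60 against 68 to 117.

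Per kilobase of exon, Zfp genes ranked low among the genes listed. Over the 270 genes with an annotated length, the median of the mean levels was 13.3 normalized counts per kilobase, compared with 32.2 over the 11911 listed genes with a length, and it stood at percentile 28.4 of these. The shares of reads on Zfp genes were 0.431%, 0.378% and 0.358% in Trf1+/+ and 0.442%, 0.258% and 0.398% in Trf1flox/flox, which overlap. Zfp706, which encodes a small single-finger protein, was the highest per kilobase, at 976 ± 310 (SD, n = 6). It alone took between 6.02% and 20.6% of the Zfp reads of a library. Next came Zfp36l1 of the CCCH class at 257 ± 190.0 and Zfp825 at 193 ± 405, whose mean rested on Trf1+/+ replicate 1, with 1017 against 5.08 to 95.5 in the other 5 libraries. Zfp207 (159 ± 123), a Bub3-binding protein of the spindle, and Zfp830 (154 ± 155), a splicing factor, followed. From Zfp36l1 to Zfp830 the neighbours in this order differed by less than their spread over libraries.

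The 10 genes with the most normalized counts were Zfp706, Zfp207, Zfp24, Zfp36l1, Zfp871, Zfp106, Zfp397, Zfp148, Zfp292 and Zfp672, and their groups overlapped in every case. Zfp706 had 6955, 4117 and 5056 normalized counts in Trf1+/+ libraries, then 2404, 4832 and 5810 in Trf1flox/flox. Zfp292 illustrates how uneven even these genes were, with 0, 620 and 487 in Trf1+/+ and 939, 597 and 238 in Trf1flox/flox.

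Predicted proteins could be translated for 268 of the genes from GENCODE coding sequences. They held a median of 10 matches to the C2H2 pattern and at most 36, and 143 had 10 or more. No match was found in 7 (Zfp36, Zfp36l1, Zfp36l2, Zfp185, Zfp330, Zfp503 and Zfp839), of which the first 3 are CCCH proteins. A KRAB-like box was found by pattern in 149, with a median of 12 fingers, and not in 119, with a median of 6. The groups were alike in level per kilobase, at medians of 14.1 and 13.0 normalized counts. Exons were shorter in the KRAB-like genes, with medians of 4.48 and 5.75 kb. Without division by length, the medians of the mean levels were 67.4 in KRAB-like genes and 82.4 in the others. The groups also differed in detection: 18 of the 149 KRAB-like genes (12.1%) and 29 of the 119 others (24.4%) were above the floor in all 6 libraries. The gap was widest in the libraries with the fewest genes, where 56.4% of KRAB-like genes against 66.4% of the others had reads in Trf1+/+ replicate 1 and 60.4% against 78.2% in Trf1flox/flox replicate 2. The order was the opposite in Trf1+/+ replicate 3 (85.9% and 84.0%) and in Trf1flox/flox replicate 1 (86.6% and 84.0%).

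To compare the genotypes, differences were taken on the log2(normalized count + 1) scale and tested with limma. A gene had to reach 10 normalized counts in 3 or more of the libraries to enter the test, and 9966 genes did. Of the 271 Zfp genes, 180 (66.4%) passed this filter, against 82.2% of all listed genes, and 91 had no test. No Zfp gene changed at an adjusted p under 0.05 in limma, nor did any other gene (0.0% of those tested). The smallest adjusted p of a Zfp gene was 0.117 in limma, for Zfp810. At an unadjusted p under 0.05, limma gave 5 Zfp genes on the higher and 3 on the lower side in Trf1flox/flox, while the background over all tested genes was 3.54% higher and 1.01% lower. The shares of Zfp genes lie close to these, as 8 of 180 is 4.44% and the same share of all tested genes is 4.56%. With edgeR's quasi-likelihood test on recovered reads, 0 Zfp genes passed at an adjusted p and 4 at an unadjusted p under 0.05 (background 1.97%). DESeq2, on the same reads, gave an adjusted p under 0.05 for 4 of the 162 Zfp genes that received one (Zfp810 higher, Zfp143, Zfp729b and Zfp930 lower), where the background was 0.617% of tested genes.

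Groups that did not overlap were found for 7 tested Zfp genes on the higher side and 4 on the lower side, that is 3.89% and 2.22%. Over all tested genes the same shares were 5.35% and 3.33%. Both shares of Zfp genes were under those of all tested genes. Of the 91 genes without a test, 5 had higher and 1 had lower values without overlap, that is 5.49% and 1.10%, against 5.79% and 2.32% of all listed genes without a test.

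The overall direction of the Zfp genes depended on the library and the scale. In limma 109 of the 180 tested genes (60.6%) had a higher and 71 a lower mean in Trf1flox/flox, with a median log2 fold change of 0.67, compared with 55.9% and 0.20 for every gene in the test. When the library labelled Trf1+/+ replicate 1 was left out, 44.4% of the Zfp genes were higher and the median was -0.17, against -0.03 for all tested genes. Without that library and Trf1flox/flox replicate 2 together, which have the fewest detected genes, the median was 0.03. The count-based fits split the Zfp genes evenly, with 50.0% higher in DESeq2 and in edgeR, where all tested genes were at 48.3%. After scaling to the same upper quartile, 63.9% of the Zfp genes and 63.9% of all genes were higher. The spread within groups was also wider for the Zfp genes, with a median SD of 2.81 on the log2 scale compared with 2.17 for all genes. The same SD was 2.72 for 23 Zbtb genes, 3.12 for 9 Zscan and Zkscan genes and 1.22 for 8 Klf genes. Levels differed as well, with a median of mean levels of 67.9 for the listed Zfp genes and 151 for all listed genes. The SD was not compared at matched levels.

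**Figure D3:**
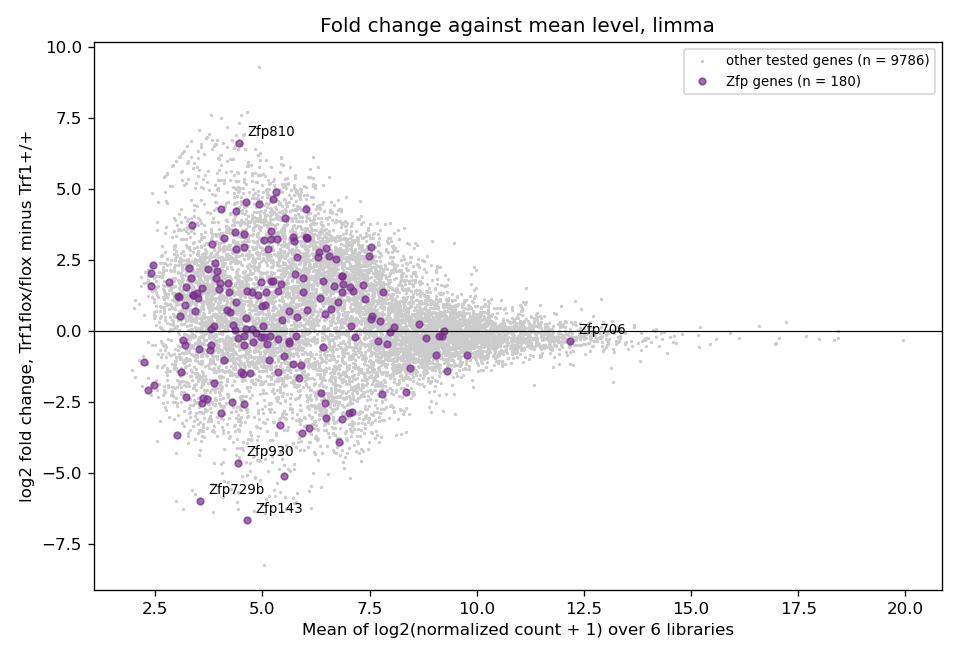
Log2 fold change in limma (y axis, Trf1flox/flox minus Trf1+/+) against the mean of log2(normalized count + 1) over 6 libraries (x axis) for the 180 tested Zfp genes (purple) and the other 9786 tested genes (grey). The Zfp genes, from -6.67 to 6.62, lie inside the range of all tested genes, from -8.26 to 9.27, and Zfp706, the one with the highest mean, lies near 0.

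Zfp810 was the Zfp gene with the smallest p in limma. It encodes a KRAB-like protein with 10 fingers (ENSMUSG00000066829, minus strand of chromosome 9, 22276748 to 22307648 on GRCm38). It had 4.45, 0 and 0.985 normalized counts in Trf1+/+ libraries, then 192, 193 and 270.1 in Trf1flox/flox. All 3 Trf1flox/flox libraries were far above the 3 Trf1+/+ libraries, of which 1 exceeded the floor. The log2 fold change was 6.62 with a standard error of 0.92 (limma, adjusted p = 0.117), and DESeq2 gave an adjusted p of 0.00692. Zfp809 lies in the same group of neighbours and encodes a silencer of retroviruses that recognises their primer binding site. It had 0, 76.2 and 111 in Trf1+/+ and 78.2, 77.6 and 53.7 in Trf1flox/flox, and its groups overlapped.

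Zfp143 stood at the other end. Its protein, also known as STAF, is a general activator that binds near the start sites of many genes (ENSMUSG00000061079, plus strand of chromosome 7, 110061217 to 110095394 on GRCm38). It had 1298, 53.0 and 230 normalized counts in Trf1+/+ libraries, then 0, 0 and 14.5 in Trf1flox/flox. The groups did not overlap, although the Trf1+/+ libraries differed among themselves by more than the lowest of them differed from Trf1flox/flox. The log2 fold change was -6.67 with a standard error of 1.67 (limma, adjusted p = 0.482). DESeq2 gave an adjusted p of 0.0242.

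The promoters of these 2 genes are shown because they had the highest and the lowest log2 fold change of the tested Zfp genes in limma. In DESeq2 the lowest of the named genes was Zfp729b, at -8.02 against -6.70 for Zfp143. Each sequence, from RefSeq on GRCm38.p6, runs 5′ to 3′ from 250 bases before to 50 after a RefSeq start, which for Zfp143 lies downstream of the GENCODE start given above. Capitals mark 3 elements of ordinary promoters on either strand, namely the box CCAAT, the GC box with the letters GGGCGG, and a core of the YY1 site with the letters CCATNTTG. They were chosen after the sequences were read, and no matches overlap in them.
Zfp810, chr9:22307589-22307888, minus strand: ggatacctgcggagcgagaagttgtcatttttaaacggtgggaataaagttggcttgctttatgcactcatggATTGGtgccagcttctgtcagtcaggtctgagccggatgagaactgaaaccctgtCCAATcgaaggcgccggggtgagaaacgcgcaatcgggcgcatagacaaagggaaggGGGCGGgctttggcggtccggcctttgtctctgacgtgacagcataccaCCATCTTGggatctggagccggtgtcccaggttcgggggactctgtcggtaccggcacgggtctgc
Zfp143, chr7:110061452-110061751, plus strand: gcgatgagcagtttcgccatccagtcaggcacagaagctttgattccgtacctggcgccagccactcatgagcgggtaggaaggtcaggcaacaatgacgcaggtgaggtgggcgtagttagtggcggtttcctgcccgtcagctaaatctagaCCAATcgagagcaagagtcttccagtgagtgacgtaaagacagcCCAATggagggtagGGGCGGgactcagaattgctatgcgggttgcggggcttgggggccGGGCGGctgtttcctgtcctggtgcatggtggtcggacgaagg

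The stretch of Zfp810 held 20 CG dinucleotides and that of Zfp143 held 18. Both had 2 matches to CCAAT. Zfp143 had 2 matches to GGGCGG, while Zfp810 had 1, together with a single match to CCATNTTG. RefSeq promoters were at hand for 221 Zfp genes, and 49.3% of these contained CCAAT, against 38.9% of the promoters of listed genes (n = 9136) and 37.9% of all 27025 promoters. GGGCGG was in 48.0% of Zfp promoters, 64.1% of listed and 35.9% of all promoters. For CCATNTTG the shares were 7.69%, 6.76% and 5.25%. Zfp promoters also had fewer CG dinucleotides than those of listed genes, with medians of 14 and 21 per 300 bases. A match describes the letters and not a bound site. No promoter was given for Zfp729b and Zfp930.

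Zfp729b, a KRAB-like gene with 30 fingers, had 333, 42.3 and 55.2 normalized counts in Trf1+/+ libraries, then 0.859, 0 and 0.689 in Trf1flox/flox. Every Trf1flox/flox library was at the floor, and every Trf1+/+ library was well above it. Its log2 fold change was -5.99 with a standard error of 1.06 (limma, adjusted p = 0.172), and DESeq2 gave an adjusted p of 0.0253. The neighbouring near copy Zfp729a had 19.6, 44.7 and 27.6 in Trf1+/+ and 237, 7.65 and 9.65 in Trf1flox/flox. The alignment allowed 20 hits per read, and the values do not show whether reads shared by such copies were counted for either of them. Single values of paralogous Zfp genes are therefore uncertain. A similar pattern was found for Zfp758, with 959, 6.63 and 23.7 in Trf1+/+ and 0.859, 0 and 0 in Trf1flox/flox, but Zfp758 did not pass the filter and had no test. These were the only 2 Zfp genes at the floor in all libraries of 1 genotype and above it in all libraries of the other (0.738% of 271, against 1.03% of all listed genes).

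Zfp930 was the last of the genes with an adjusted p under 0.05 in DESeq2 (0.0439). It encodes a KRAB-like protein with 12 fingers. It had 1147, 8.29 and 118 normalized counts in Trf1+/+ libraries, then 10.3, 0 and 6.20 in Trf1flox/flox. The groups overlapped, and the log2 fold change of -4.64 had a standard error of 1.97 (limma, adjusted p = 0.996). Its mean in Trf1+/+ rested mainly on replicate 1.

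Among the other genes on the higher side, Zfp277, a gene with 3 C2H2 matches, had 3.56, 0.829 and 12.8 in Trf1+/+ and 207, 37.2 and 92.3 in Trf1flox/flox. Zfp346, which encodes a protein that binds double-stranded RNA, had 0.891, 30.7 and 2.96, then 54.1, 104 and 55.1. Zfp846, a KRAB-like gene, had 5.34, 6.63 and 44.3, then 124, 115 and 59.3. In these 3 genes each Trf1flox/flox library exceeded each Trf1+/+ library, and the log2 fold changes were 4.22, 3.47 and 2.88. Zfp821, with 0.891, 7.46 and 9.85 against 49.8, 222 and 12.4, was separated by a narrow margin. Zfp120, Zfp983 and Zfp639 overlapped, since 1 Trf1+/+ library in each was above the lowest Trf1flox/flox library. Zfp639, for instance, had 0.891, 214 and 0 in Trf1+/+ and 257, 234 and 165 in Trf1flox/flox. The log2 fold changes of Zfp821, Zfp120, Zfp983 and Zfp639 were 3.26, 4.63, 4.27 and 4.86. None of these 7 genes passed an adjusted test in limma, edgeR or DESeq2, and Zfp639 received no adjusted p in DESeq2.

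On the lower side, Zfp704 was well expressed in all 6 libraries, with 904, 925 and 395 in Trf1+/+ and 72.2, 364 and 141 in Trf1flox/flox. Its groups did not overlap, and the log2 fold change was -2.15 with a standard error of 0.95. The highest Trf1flox/flox library was close to the lowest Trf1+/+ library. Zfp934, with 213, 43.9 and 247 against 55.8, 5.46 and 5.51, overlapped in a single pair of libraries. Zfp931 (919, 583 and 93.6 against 171, 48.1 and 14.5) overlapped as well. Zfp180 was at 1157, 247 and 66.0 in Trf1+/+ and at 1.72, 0 and 170.2 in Trf1flox/flox, so the Trf1flox/flox libraries themselves disagreed. Zfp40, with 0.891, 67.1 and 177 against 0, 0 and 10.3, overlapped, with Trf1+/+ replicate 1 under the highest Trf1flox/flox library. The log2 fold changes of Zfp934, Zfp931, Zfp180 and Zfp40 were -3.32, -2.87, -5.11 and -3.66. These 5 genes passed no adjusted test in limma, edgeR or DESeq2 either.

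**Figure D4:**
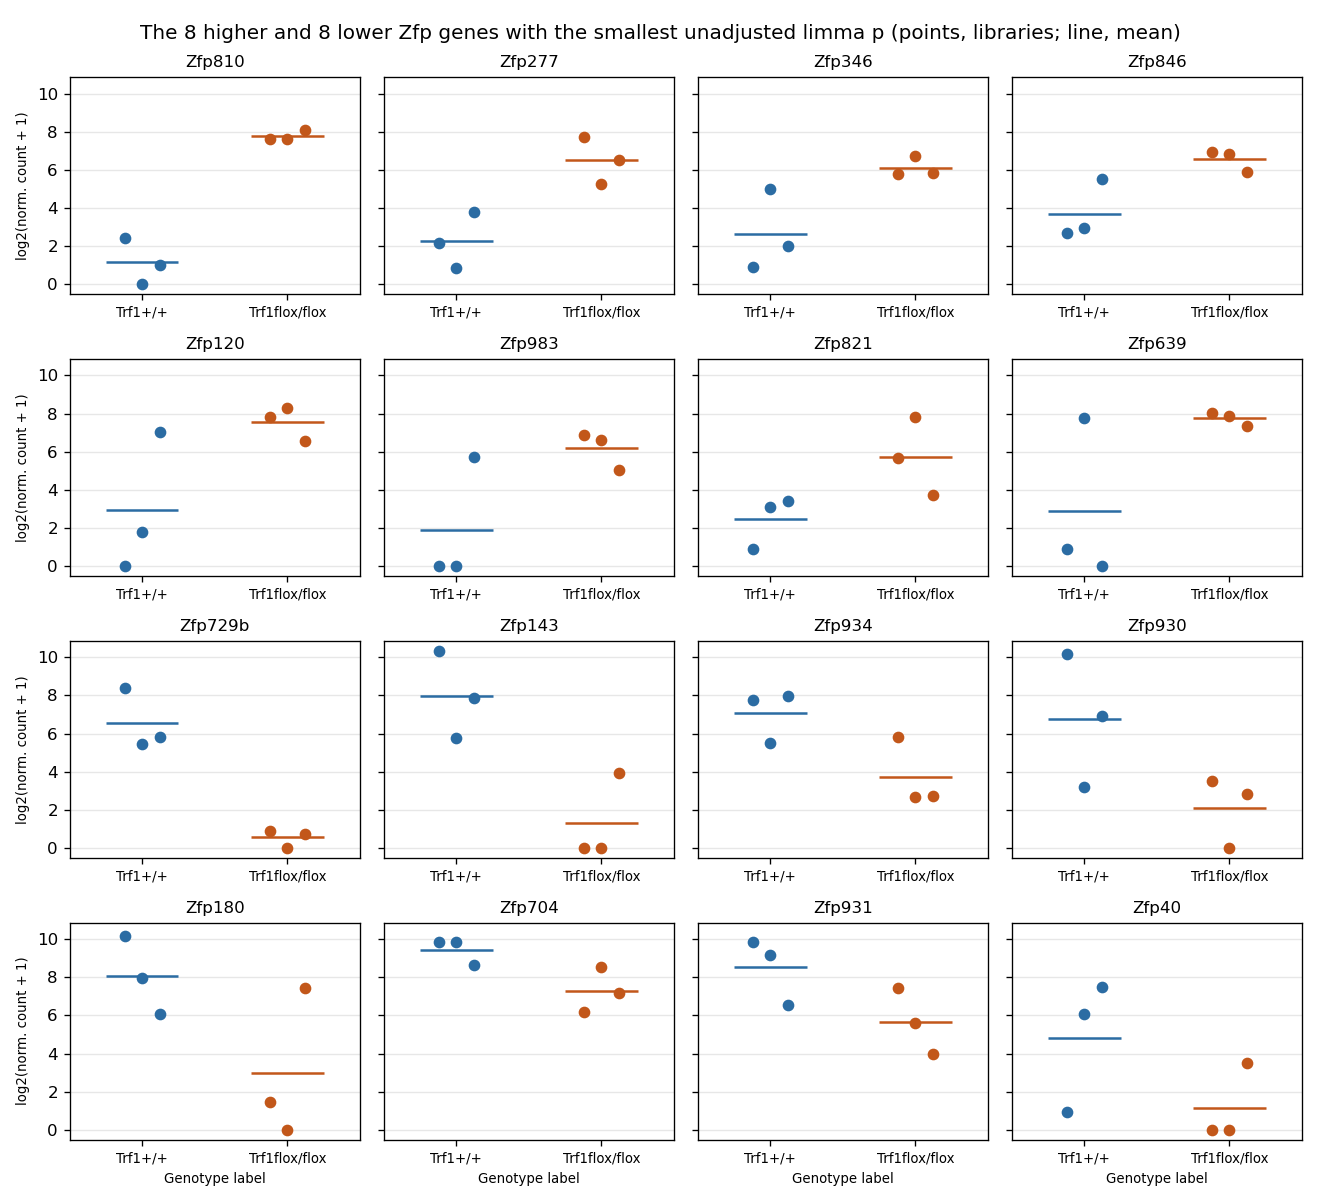
Values of log2(normalized count + 1) (y axis) in the libraries of each genotype label (x axis) for the 8 higher and 8 lower Zfp genes with the smallest unadjusted p in limma; points are libraries and lines are means of the 3 libraries. Zfp810 and Zfp729b show a clear gap between the genotypes, while genes such as Zfp639 and Zfp180 have a library of one genotype among those of the other.

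Turning to roles, the mRNA decay genes of the CCCH class did not separate the genotypes. Zfp36, which encodes tristetraprolin, had 0.891, 216 and 34.5 normalized counts in Trf1+/+ libraries, then 186, 5.46 and 78.6 in Trf1flox/flox. Zfp36l1 had 224, 1477 and 664, then 1478, 323 and 448. Zfp36l2 had 659, 247 and 102, then 212, 415 and 171. All 3 listed members were tested, 0 passed at an unadjusted p under 0.05 in limma, and the groups overlapped in each.

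Of the 7 listed genes for RNA and ribosome functions, 6 were tested and 1, Zfp346, had an unadjusted p under 0.05 in limma. Zfp106, an RNA-binding protein needed by motor neurons and muscle, had 877, 1055 and 382 in Trf1+/+ and 812, 92.9 and 784 in Trf1flox/flox. Zfp622, which takes part in maturation of the large ribosomal subunit, had 64.1, 283 and 112, then 309, 119 and 75.8. Zfp598, the ubiquitin ligase that marks collided ribosomes, was above the floor in 3 libraries, with 0.891, 123 and 0, then 1.72, 7.65 and 62.7. Zfp830 and Zfp638 ran at 105 to 605 and 113 to 430 in Trf1flox/flox, whereas in Trf1+/+ they spanned 0 to 398 and 5.34 to 353. Zfp326, part of a complex linking elongation to splicing, lay between 43.0 and 237 in the 6 libraries.

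Zfp genes tied to telomeres, DNA repair and the spindle bear most directly on a telomere protein. All 5 genes of this list were listed, 4 were tested, and 0 had an unadjusted p under 0.05 in limma. Zfp827, which brings chromatin remodelling to telomeres maintained by recombination, had 3.56, 5.80 and 10.8 normalized counts in Trf1+/+ libraries. It had 40.4, 7.65 and 22.1 in Trf1flox/flox, so that it was low throughout and its groups overlapped. Zfp524, a protein that binds telomeric repeats, had 0, 30.7 and 38.4, then 0, 0 and 22.7. Zfp451, a SUMO ligase, had 0.891, 466 and 35.5, then 297, 397 and 58.6. Zfp668 was above the floor in 3 libraries, with a highest value of 46.3 in Trf1+/+ replicate 3. Zfp207 had 2610, 456 and 1333 in Trf1+/+ and 529, 673 and 770.4 in Trf1flox/flox, and the Trf1flox/flox libraries fell within the Trf1+/+ range.

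Genes known for silencing imprints and retroelements overlapped between the genotypes as well. Of 4 listed genes, 4 were tested and 0 had an unadjusted p under 0.05 in limma. Zfp445, a guardian of imprinted methylation, had 2.67, 805 and 505 in Trf1+/+ and 144, 537 and 197 in Trf1flox/flox. Zfp932, which represses endogenous retroviruses, had 0.891, 129 and 65.0, then 19.8, 75.4 and 183. Zfp568, a repressor of a placental Igf2 transcript, was at 0, 0.829 and 79.8, then at 131, 0 and 52.4. Together with Zfp809, all 4 were at the floor in Trf1+/+ replicate 1, and without that library the Trf1+/+ means of all 4 lay within or above the Trf1flox/flox range.

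General transcription regulators were represented by 11 listed genes, of which 10 were tested and 1, Zfp143, had an unadjusted p under 0.05 in limma. Zfp148 was the most even, with 561, 275 and 756 in Trf1+/+ and 424, 280 and 588 in Trf1flox/flox. Zfp410, known as the activator of Chd4, had 38.3, 223 and 305, then 574, 385 and 206. Zfp91, a ubiquitin ligase, had 3.56, 129 and 350, then 64.4, 726 and 246. Zfp131 and Zfp281 lay between 8.91 and 299.6 and between 0.985 and 281. In contrast, Zfp592 and Zfp644 had no reads in Trf1flox/flox replicate 2 and at most 2 reads in Trf1+/+ replicate 1, with 43.4 to 434 in the other 4 libraries. Zfp532, Zfp687 and Zfp711 were above the floor in 3 or 4 libraries.

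Among developmental and mesenchymal regulators, 3 of 8 were listed. Zfp467, which acts in the choice between fat and bone fates, was above the floor in all 6 libraries, with 203, 172 and 113 in Trf1+/+ and 46.4, 594 and 405 in Trf1flox/flox. Zfp503 had 1153, 576 and 116, then 0, 118 and 192. Zfp516 cleared the floor in 1 library, at 9.65. Of these, 2 were tested and 0 had an unadjusted p under 0.05 in limma.

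The corepressor through which KRAB proteins act was present. Trim28 had 281, 781 and 351 normalized counts in Trf1+/+ libraries, then 386, 261 and 98.5 in Trf1flox/flox, and its groups overlapped. Setdb1, the histone methyltransferase that TRIM28 recruits, was above the floor in 3 libraries, with 0, 132 and 37.4, then 1.72, 0 and 207. Cbx5, encoding a heterochromatin protein, had 1876, 2427 and 817, then 1005, 1061 and 547. Of the 12 partner genes, 11 were listed and tested, 7 had higher and 4 lower means on the log2 scale, with a median log2 fold change of 0.13, and 0 had an unadjusted p under 0.05 in limma. The 97 tested KRAB-like Zfp genes had a median log2 fold change of 0.50 and the 83 tested others 0.71. Of these, 5 and 3 had an unadjusted p under 0.05 in limma.

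The chromosomal position of the Zfp genes follows their families. Chromosome 7 held 59 of them, chromosome 17 held 41 and chromosome 13 held 24. When genes no more than 250 kb apart were joined, 120 Zfp genes fell into 19 groups of 3 or more, and the largest, from Zfp677 to Zfp946 on chromosome 17 (21383748 to 22456689 on GRCm38), had 17, all KRAB-like. Within this group 12 genes were tested, 8 with higher and 4 with lower means. Without the library labelled Trf1+/+ replicate 1, 8 of the 12 had lower means, and without Trf1+/+ replicate 2 there were 2. Zfp983 and Zfp758 belong to this group, as does Zfp51, with 958, 71.3 and 555 in Trf1+/+ and 249, 1.09 and 117 in Trf1flox/flox. The group on chromosome 13 from Zfp458 to Zfp273 (67254918 to 67827002) had 14 genes, all KRAB-like, of which 4 of 10 tested were higher and 6 lower, Zfp729b among them.

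Of the 18 groups with at least 2 tested genes, 11 held both signs, 6 held higher means only and 1 held lower means only. Higher means were also the more common sign, held by 60.6% of all tested Zfp genes. The longest run of higher means was in the group on chromosome 9 from Zfp560 to Zfp846, with 4 of 4 tested genes. Without Trf1+/+ replicate 2, 1 of these 4 was lower. In the higher-only group on chromosome 8 from Zfp868 to Zfp866, 2 of 3 tested genes were lower without Trf1+/+ replicate 1. The group with lower means only, noticed after the values were seen, ran from Zfp871 to Zfp414 on chromosome 17 (32765496 to 33631779 on GRCm38), with 11 genes, and 9 of the 9 tested had lower means in Trf1flox/flox, with a median log2 fold change of -0.36. The values of Zfp414 were 248, 178 and 296 in Trf1+/+ and 374, 125 and 132 in Trf1flox/flox, and those of Zfp870 were 0, 191 and 124, then 0.859, 3.28 and 14.5. Without Trf1flox/flox replicate 2, only 3 of the 9 were lower, without Trf1+/+ replicate 2 there were 5, and without Trf1+/+ replicate 1 or replicate 3 there were 6. All 9 were lower in edgeR and without Trf1flox/flox replicate 1 or replicate 3, and 7 without both libraries with the fewest genes. The near copies Zfp955a and Zfp955b had almost parallel values, with 585, 2.49 and 242 against 613, 1.66 and 201 in Trf1+/+, and 162, 1.09 and 125 against 195, 0 and 77.9 in Trf1flox/flox.

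**Figure D5:**
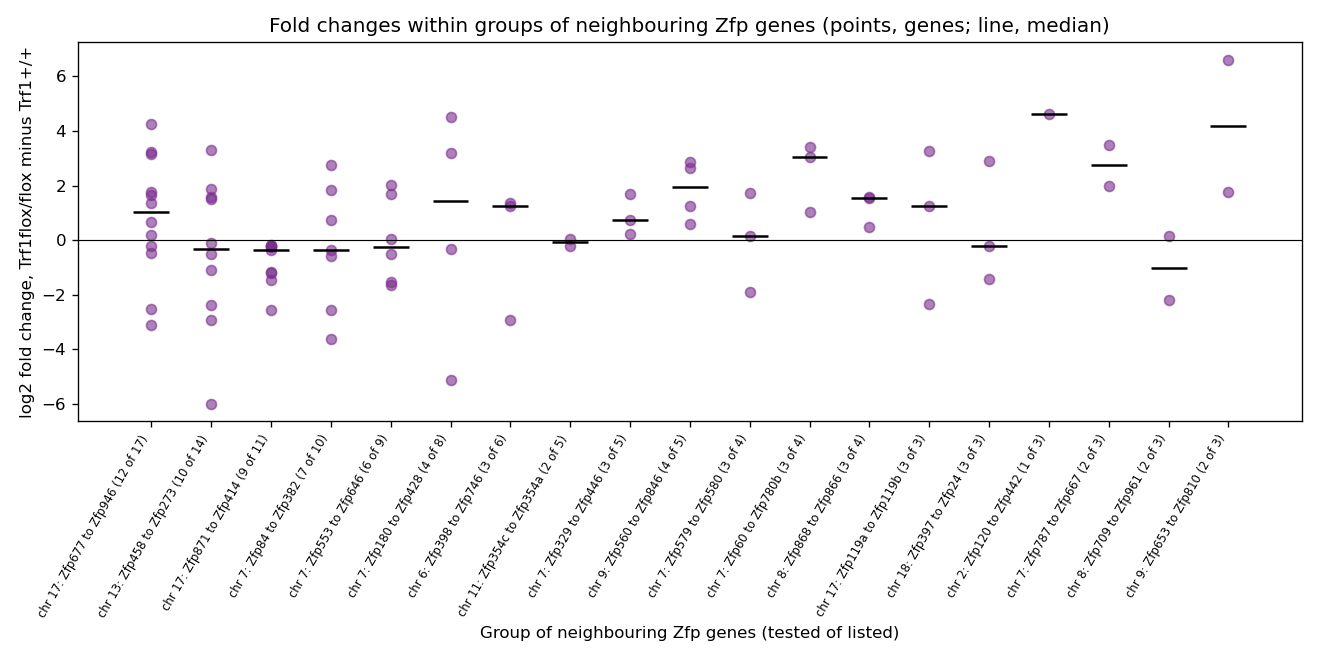
Log2 fold change in limma (y axis, Trf1flox/flox minus Trf1+/+) of tested Zfp genes in each of 19 groups of neighbours (x axis, named by chromosome and by first and last gene, with tested and listed numbers); points are genes and lines are medians. The largest groups hold both signs, and the 9 tested genes from Zfp871 to Zfp414 all lie below 0.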

How the data were processed

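The authors sequenced libraries of 500 sorted cells made with a low-input kit that keeps no strand, aligned the reads with TopHat2 2.0.10 (Bowtie 1.0.0, SAMtools 0.1.19; 3 mismatches and 20 hits allowed) and counted them with HTSeq 0.6.1 on GENCODE genes of GRCm38. The submitters' notes list GRCm39 instead, and the values cannot tell which was used. The deposited signal is a table of normalized counts, that is, reads divided by 1 size factor per library. All values (100%, tolerance 0.1 read) were whole multiples of 1 read, and the reads so recovered were tested with edgeR 4.0.16 (quasi-likelihood) and DESeq2 1.42.0 as alternatives to limma 3.58.1 (R 4.3.3) on log2(value + 1), with Benjamini-Hochberg adjustment over all tested genes. Reads on overlapping antisense genes cannot be told apart. Genes were filtered at 10 normalized counts in 3 libraries. Replicate numbers follow the order of deposit and pair no mice. The paper gives the groups as mice, but the labels do not tie each library to a mouse, so p-values measure the spread between these samples. Positions, exon lengths and translations came from GENCODE vM21 on GRCm38, and 270 of the 271 symbols matched. C2H2 fingers and KRAB-like boxes were counted by patterns in 1 translation per gene. The scripts were tested on simulated data.

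The Zfp genes and the lists of roles and markers were chosen with earlier results of these data known. Genes named with fold changes were the 8 higher and 8 lower of smallest unadjusted p in limma and any with an adjusted p under 0.05 in 1 of the tools. Others were named by values: the role lists, the 10 with the most counts, those at the floor in 1 genotype only, and, chosen after their values were seen, those of the per-kilobase order, the genes at the floor throughout, Zfp185 and the neighbours of named genes. Alternatives were pseudocounts of 0.5 and 10, filters of 0 and 50, upper quartile scaling, a limma trend and leaving out each library. Leaving out both libraries with the fewest genes was added after seeing the data.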

Additional observations from a re-analysis of the deposited data

How the results depend on the processing

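The number of Zfp genes with an adjusted p under 0.05 was 0 in limma under each of its alternatives and in edgeR, and 4 in DESeq2. The number with an unadjusted p under 0.05 was 8 in limma, 4 in edgeR and with a mean-variance trend, and 14 with no filter. It was 5 to 19 with each library left out, and 13 without both libraries with the fewest genes. The 19, without Trf1+/+ replicate 3, were 10.6% of the tested Zfp genes, beside 8.32% of all tested genes. The 5, without Trf1flox/flox replicate 2, were 2.78% beside 3.23%. With no filter the shares were 5.17% and 4.63%, and without both libraries 7.22% and 4.51%. The median log2 fold change, 0.67, was -0.0039 in edgeR, -0.014 in DESeq2, 0.33 with a pseudocount of 10, 0.033 without both libraries with the fewest genes, and -0.17 to 0.91 with each library left out, the lowest being without Trf1+/+ replicate 1. Its sign thus changed without that library and in both count-based fits, and the cause was not tested. Groups did not overlap for 11 tested Zfp genes and for 17 with no filter. The number was 20 to 42 with each library left out and 53 without both libraries with the fewest genes. Smaller groups overlap less often by construction, and the shares over all tested genes were not taken under these alternatives. The detected Zfp genes fell from 165 to 96 in Trf1+/+ replicate 1 above 3 reads, and at 10 normalized counts to 75 there, to 148 in Trf1+/+ replicate 2 and to 121 in Trf1flox/flox replicate 2. The fold changes of the 16 genes named with one kept their sign in all 235 values over 15 alternatives. These genes were picked by their p in the same data, and the filters and the limma trend cannot alter a fold change. The kept sign is therefore no separate support. Of these values, 4 passed the threshold, those of Zfp810, Zfp143, Zfp729b and Zfp930 in DESeq2, with log2 fold changes of 6.95, -6.70, -8.02 and -6.22. Without Trf1+/+ replicate 1, limma gave 7.27, -5.49, -5.07 and -2.94 for these 4 genes, and DESeq2 was not refitted without it. No paired analysis was possible because the labels carry no replicate numbers. Low values left 91 of 271 Zfp genes with no test. Total reads did not follow detection, since Trf1+/+ replicate 1 had the most reads (12248797) and the fewest listed genes detected (8967).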
